A study of Rattus norvegicus with 4 samples.

Results

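The granins and the enzymes that process prohormones were described in the carotid body (CB), the small organ at the carotid bifurcation whose glomus cells sense blood oxygen. The 10 genes were taken by symbol from the 32883 genes of the table: the granins Chga, Chgb, Scg2, Scg3 and Vgf, and the processing proteins Pcsk1, Pcsk2, Cpe, Scg5 and Pcsk1n. Total RNA of CBs from untreated Sprague-Dawley rats was sequenced at day 5 (neonate) and at day 21 (adult), in 2 libraries per age and 4 libraries in all. Each neonatal library pooled 6 pups and each adult library pooled 3 rats by the text deposited with the series. Other pool sizes are given in the paper. The labels call the libraries of an age biological replicates, and p-values measure the spread between these pools. The pools held every cell type of the dissected tissue. In such bulk RNA, fewer cells of a type and less RNA per cell cannot be told apart.

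Granins are acidic proteins that aggregate in the Golgi and drive the formation of dense-core vesicles, the granules in which neuroendocrine cells keep amines and peptides. Inside these granules the convertases encoded by Pcsk1 and Pcsk2 cut prohormones at pairs of basic residues, and carboxypeptidase E, encoded by Cpe, trims the basic residues left at the new ends. Scg5 encodes the chaperone that Pcsk2 needs to become active, and Pcsk1n encodes a granin-like inhibitor of the Pcsk1 enzyme. Glomus cells hold dopamine and peptides in dense-core vesicles, and chromogranin A is a common stain for them.

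Totals ran from 36286191 to 39476110 estimated counts per library, and a floor of 3 counts equals 0.0760 to 0.0827 CPM (counts per 1e+06 reads). This floor covers counting error only. Below, CPM are normalised by the trimmed mean of M-values (TMM), and a positive log2 fold change is a higher level in neonates. Genes for glomus cells were present in all 4 libraries, with Th, the rate-limiting enzyme of dopamine synthesis, between 837 and 1407 CPM. The parathyroid genes Pth and Gcm2 had reads in the neonatal libraries alone, and unequally. Pth, the parathyroid hormone gene, stood at 1773 and 208 CPM in neonate replicates 1 and 2, with no read in either adult library (0 counts). Results that rest on neonate replicate 1 are therefore given with and without it.

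Of the 10 genes, 9 passed the filter of 1 CPM in 2 libraries and were tested. By edgeR's quasi-likelihood test, 4 were higher in neonates (Vgf, Pcsk2, Chga and Cpe) and 2 were lower (Pcsk1 and Scg2) at an adjusted p under 0.05. The same call was made for 62.3% of all 13843 genes tested, 31.2% higher and 31.1% lower, so the 6 of 9 are near the background. With a fold change of at least 2 as well, Vgf, Pcsk2 and Pcsk1 were left, against 20.8% of all genes (7.68% higher and 13.2% lower). The ages did not overlap for 6 of the 9, against 83.0% of all genes. The median log2 fold change of the 9 was -0.0054, beside -0.0029 over all genes tested. Chgb, Scg3 and Scg5 did not pass the test.

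**Figure D1:**
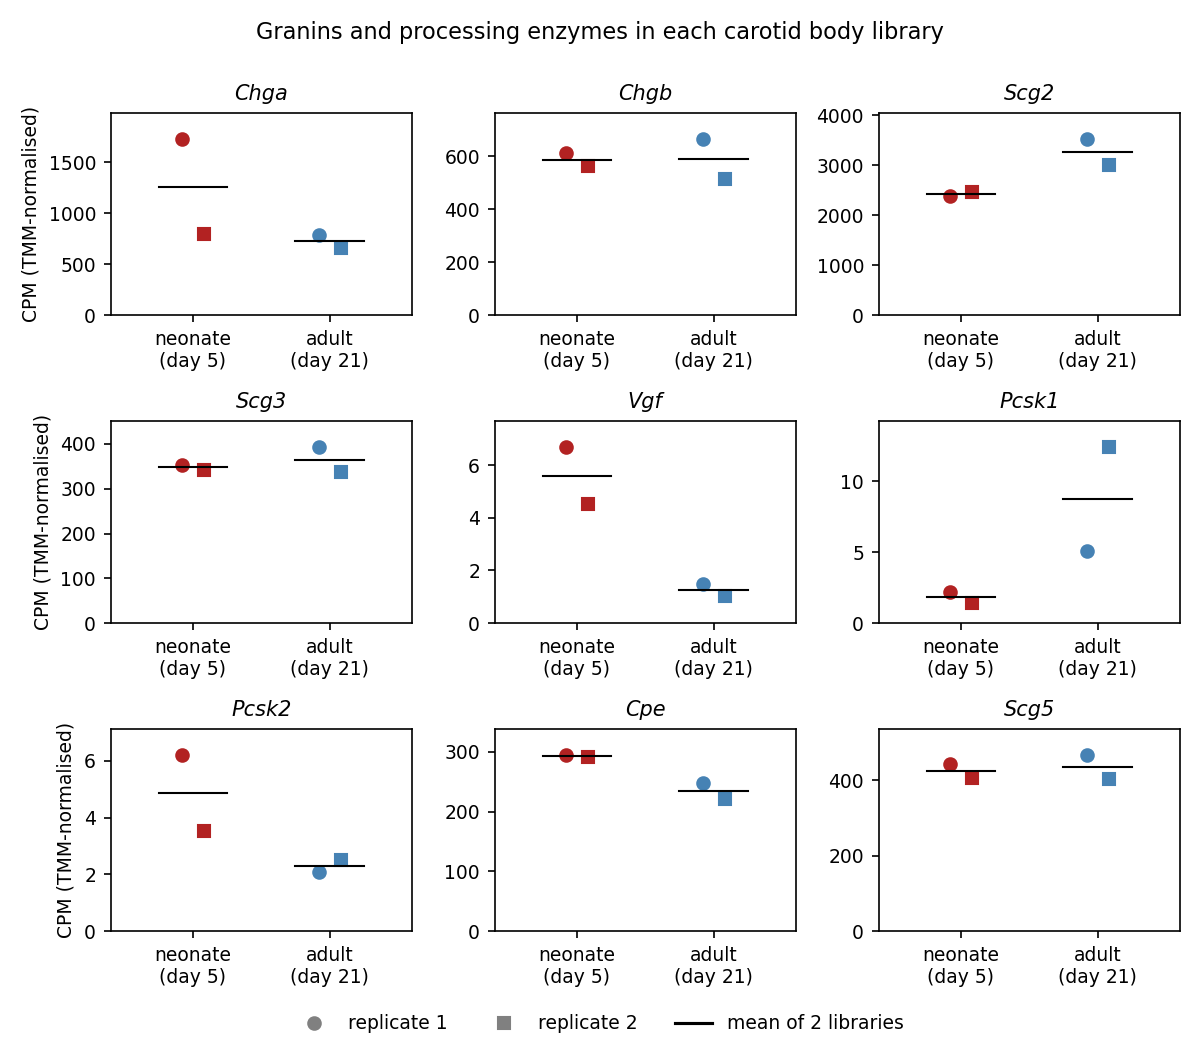
CPM after TMM normalisation (vertical axes, from 0) of the 9 genes tested, in the 2 neonatal libraries (red) and the 2 adult libraries (blue), with circles for replicate 1, squares for replicate 2 and a line at the mean of each age. Vgf and Pcsk2 were higher and Pcsk1 lower in both neonatal libraries, Chga had 1725 CPM in neonate replicate 1 against 661 to 793 CPM elsewhere, and the ages overlapped for Chgb, Scg3 and Scg5.

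Upstream sequences are shown for the granins Scg2 and Vgf, which moved in opposite directions and whose promoters both hold the cAMP response element, an 8-base site for the CREB family of transcription factors. RefSeq promoters of the build GRCr8 were matched for 8 of the 10 genes, but not for Chga and Pcsk1, which were not searched. The 250 bases before each start were searched on both strands. The element TGACGTCA, in capitals, was found in 2 of these 8 and in 1.59% of all 33469 promoters. In Scg2 it lay at bases -123 to -116 from the start and in Vgf at bases -90 to -83.
Scg2, chr9:88256867-88257116, minus strand: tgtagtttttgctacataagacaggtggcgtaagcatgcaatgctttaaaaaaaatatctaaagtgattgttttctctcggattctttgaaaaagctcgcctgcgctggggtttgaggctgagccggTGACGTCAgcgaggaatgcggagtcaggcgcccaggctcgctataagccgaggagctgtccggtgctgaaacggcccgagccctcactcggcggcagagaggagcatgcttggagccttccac
Vgf, chr12:25277021-25277270, minus strand: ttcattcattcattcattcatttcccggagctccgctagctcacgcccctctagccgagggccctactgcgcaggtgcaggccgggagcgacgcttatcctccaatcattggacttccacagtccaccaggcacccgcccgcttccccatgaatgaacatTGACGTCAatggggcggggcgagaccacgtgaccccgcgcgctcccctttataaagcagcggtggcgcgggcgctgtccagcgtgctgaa

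The 5-base core TGACG of this element, which the full element holds on each strand, was present in 6 of the 8 promoters and in 18.2% of all promoters. Besides Scg2 and Vgf, it was found in Scg3, Pcsk2, Cpe and Scg5, shown here with the core in capitals (for Pcsk2 on the opposite strand, hence CGTCA) because these genes span the whole range from higher to not called.
Scg3, chr8:85322539-85322563, minus strand: gctgggtcgcTGACGccatcctcac
Pcsk2, chr3:151333871-151333895, plus strand: ggcgggcgcgCGTCAcccgggctgg
Cpe, chr16:29796524-29796548, plus strand: atttggctttTGACGtgggtctgag
Scg5, chr3:121042796-121042812, minus strand: cggagggaggTGACGca
A match in these letters is a description of the window and does not show binding. Neither motif was found in the windows of Chgb and Pcsk1n.

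Among the granins, Vgf (ENSRNOG00000001416) had the largest change toward neonates. This granin-like prohormone is known as a gene induced by nerve growth factor. Its levels were 6.67 and 4.54 CPM in neonate replicates 1 and 2 and 1.50 and 1.03 CPM in adult replicates 1 and 2. Both neonatal libraries lay well above both adult libraries, although all 4 levels were low, from 41.0 to 237 estimated counts. Vgf was 4.42-fold higher in neonates, with a log2 fold change of 2.14 ± 0.34 (SE, adjusted p = 0.00058, edgeR). The value was 1.85 without neonate replicate 1. Adult replicate 2 held a fractional estimated count for Vgf, as arises where reads are divided among transcripts of more than 1 gene.

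Chga (ENSRNOG00000052549) encodes chromogranin A, the precursor of catestatin and vasostatin. Its level was 1725 and 793 CPM in neonate replicates 1 and 2 and 786 and 661 CPM in adult replicates 1 and 2. Neonate replicate 1 alone stood high, and neonate replicate 2 lay just above adult replicate 1. The means were 1259 ± 659 CPM in neonates and 724 ± 88.5 CPM in adults (SD, n = 2 each). The log2 fold change was 0.80 ± 0.28 (SE, adjusted p = 0.035, edgeR). Without neonate replicate 1 the log2 fold change was 0.14 (adjusted p = 0.375, same test), and without neonate replicate 2 it was 1.27. The call was also lost without adult replicate 2 (0.65, adjusted p = 0.110, edgeR), with library size alone (0.55, adjusted p = 0.116, edgeR) and in DESeq2 (0.80, adjusted p = 0.202).

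Chga had the widest gap between the 2 neonatal libraries among the 9 genes tested. Its CPM in neonate replicate 1 was 2.18 times that in neonate replicate 2, and 1.01% of all genes tested had a gap at least as wide. The parathyroid genes had the same order, with 8.51 times for Pth and 7.31 times for Gcm2, the transcription factor of parathyroid cells. The 3 parathyroid markers together had 1796 CPM and 212 CPM in the neonatal libraries and at most 0.0504 CPM in the adult libraries, with Pth and Gcm2 at 0 counts in adults. Chromogranin A is also abundant in parathyroid chief cells. The part of parathyroid RNA in the level of Chga was not tested. Over the 11 glomus cell markers the same ratio ran from 0.769 for Hand2 to 1.55 for Dbh, with a median of 1.07, and Th was at 1.22. The sympathetic neuron markers had a median of 1.16, with Slc6a2 at 1.50, and the 3 erythroid markers were between 1.67 and 2.11.

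**Figure D2:**
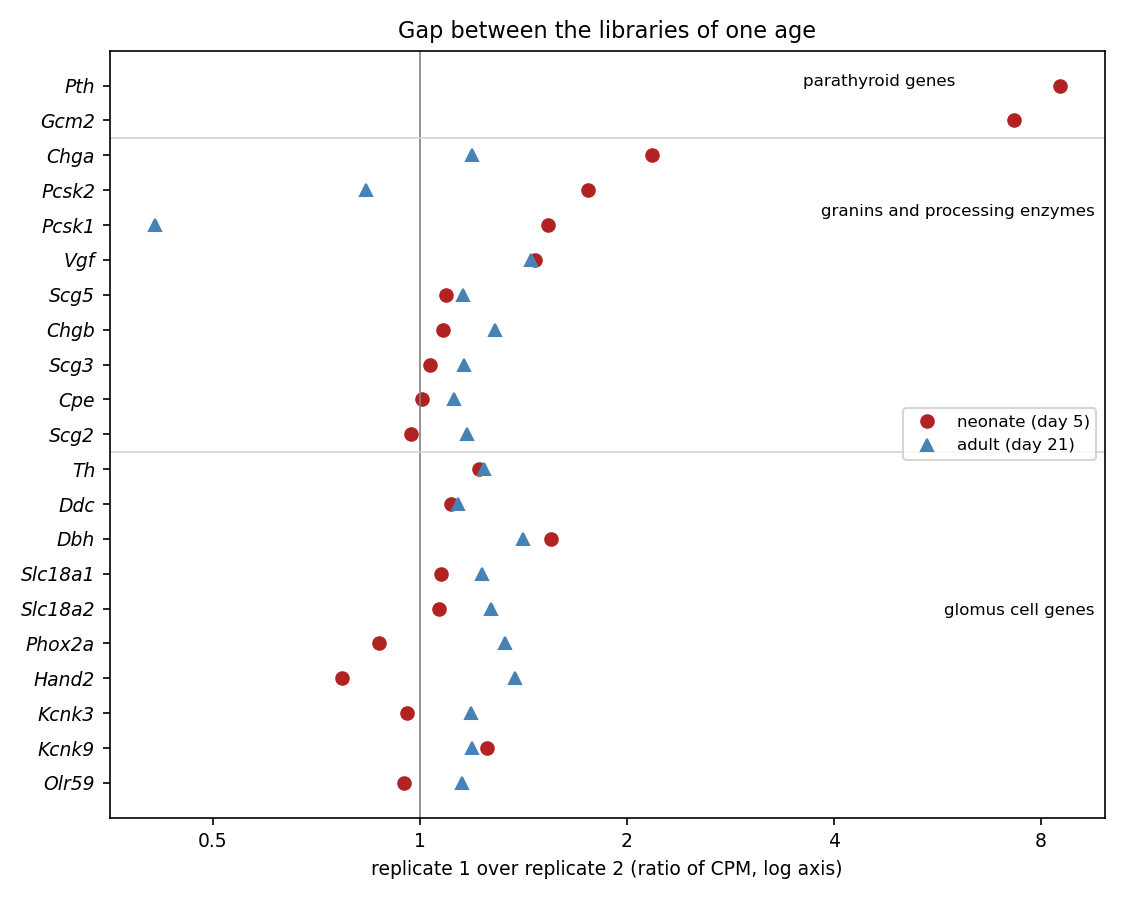
Ratio of CPM in replicate 1 to CPM in replicate 2 (horizontal log axis) for 2 parathyroid genes, the 9 genes tested and 10 glomus cell genes, in neonates (red circles) and adults (blue triangles, absent where adult counts are 0). Pth and Gcm2 stand at 8.51 and 7.31 and Chga at 2.18 in neonates, while the widest adult gap is that of Pcsk1, at 0.412.

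Scg2 (ENSRNOG00000015055) encodes secretogranin II, the precursor of secretoneurin, and it was the granin that was lower in neonates. Its level was 2383 and 2459 CPM in the neonatal libraries and 3518 and 3006 CPM in the adult libraries. The neonatal libraries differed by less than the adult ones, and both lay below them. Scg2 was 1.35-fold lower in neonates (log2 fold change -0.43, SE 0.11, adjusted p = 0.0086, edgeR). It kept its direction and its call under all 13 alternatives, between -0.67 and -0.34.

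Chgb (ENSRNOG00000021269), which encodes chromogranin B, had 611 and 565 CPM in neonates and 665 and 516 CPM in adults. Both neonatal values lay between the adult values. The log2 fold change was -0.0054, with a 95% interval from -0.28 to 0.27 (adjusted p = 0.97, edgeR's quasi-likelihood test), and its sign depended on the processing. Scg3 (ENSRNOG00000010784) encodes secretogranin III, which tethers chromogranin A to the granule membrane. It had 354 and 342 CPM in neonates and 392 and 338 CPM in adults, again with overlap. Its interval ran from -0.28 to 0.14 around -0.07 (adjusted p = 0.54, edgeR). These intervals leave out a 2-fold change in either direction.

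The granins thus changed unequally. Chga over Chgb, as a ratio of estimated counts within a library, was 2.82 and 1.40 in neonates and 1.18 and 1.28 in adults. Chga over Scg2 was 0.724 and 0.323 in neonates and 0.224 and 0.220 in adults. Such ratios do not move with the scaling between libraries, and the neonatal replicate 1 was the highest in both.

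Of the convertases, Pcsk1 (ENSRNOG00000011107) was lower and Pcsk2 (ENSRNOG00000005438) higher in neonates. Pcsk1 had 2.22 and 1.45 CPM in the neonatal libraries and 5.11 and 12.4 CPM in the adult libraries. No neonatal library reached the lower adult one, but the adult libraries differed by 2.43 times, a gap that 0.231% of all genes tested reached or passed. The log2 fold change was -2.25 ± 0.43 (SE, adjusted p = 0.0017, edgeR), or 4.76-fold lower in neonates. Without adult replicate 2, the library with the high value, it was -1.50 (adjusted p = 0.0147, edgeR). All 4 libraries had fractional estimated counts for Pcsk1, as arise where reads are divided among transcripts of more than 1 gene.

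Pcsk2 had 6.20 and 3.54 CPM in neonates and 2.09 and 2.49 CPM in adults, or 220 and 127 against 85 and 99 counts. Neonate replicate 1 was again the highest, and neonate replicate 2 was nearer to the adult libraries. The log2 fold change was 1.09 ± 0.33 (SE, adjusted p = 0.019, edgeR). Without neonate replicate 1 it was 0.64 (adjusted p = 0.104, edgeR), and it also lost its call without adult replicate 1 (0.93, adjusted p = 0.111, edgeR), without adult replicate 2 (1.19, adjusted p = 0.0553, edgeR) and with library size alone (0.83, adjusted p = 0.0529, edgeR).

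The ratio of the convertase transcripts restates these opposite changes. Neither gene overlapped between the ages, so the ratio could not overlap, and it is no separate result. Estimated counts of Pcsk1 over those of Pcsk2 were 0.359 and 0.409 in the neonatal libraries and 2.45 and 4.97 in the adult libraries. Counts are not per length, so the crossing of 1 says nothing on which transcript was more abundant. An exact permutation test on such a ratio, two-sided and with 2 libraries per age, cannot go below p = 0.333, and no test was made of it.

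**Figure D3:**
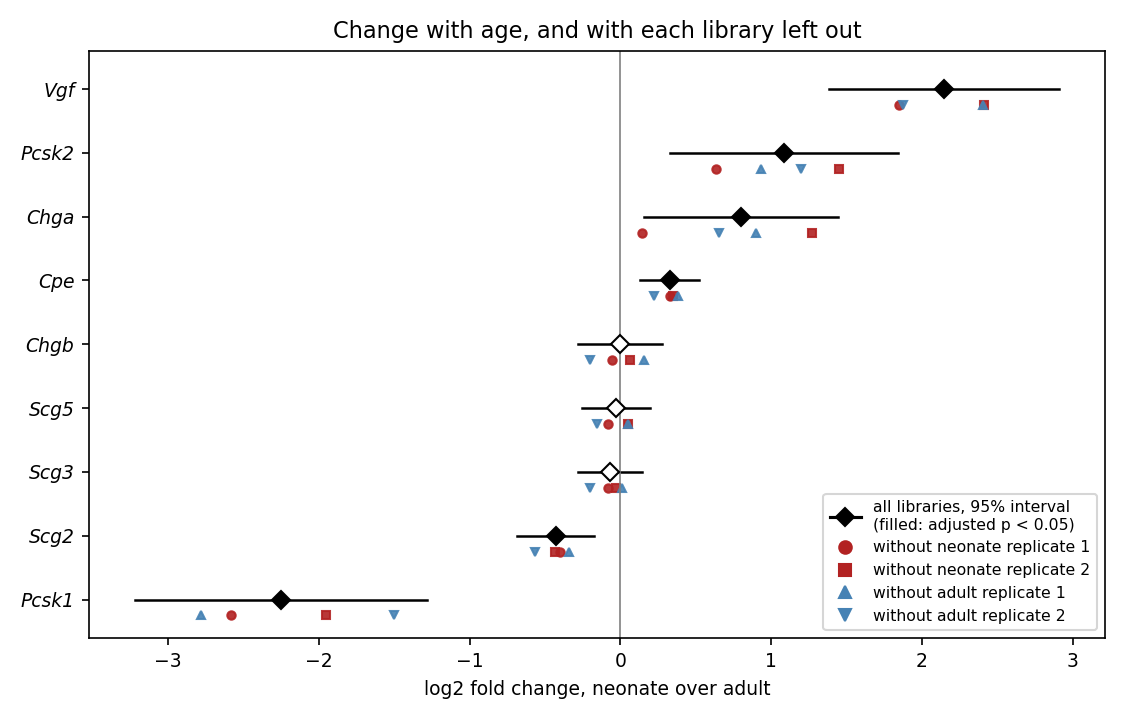
Log2 fold change of neonates over adults (horizontal axis) with its 95% interval for the 9 genes tested (diamonds, filled at an adjusted p under 0.05), and the value with each library left out (small symbols). Chga falls to 0.14 without neonate replicate 1, Pcsk1 moves to -1.50 without adult replicate 2, and Scg2 stays between -0.57 and -0.34.

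Carboxypeptidase E and the chaperone of Pcsk2 changed little. Cpe (ENSRNOG00000043387) had 294 and 292 CPM in neonates and 247 and 221 CPM in adults. The neonatal libraries were nearly alike and lay above both adult libraries. The log2 fold change was 0.33 ± 0.086 (SE, adjusted p = 0.0091, edgeR), or 1.25-fold. With library size alone it was 0.082 (adjusted p = 0.441, edgeR), and without adult replicate 2 it was 0.22 (adjusted p = 0.0854, edgeR). Scg5 (ENSRNOG00000007542) had 444 and 407 CPM in neonates and 466 and 403 CPM in adults, with overlap. Its log2 fold change was -0.03, with a 95% interval from -0.26 to 0.19 (adjusted p = 0.80, edgeR). With library size alone, Scg3 and Scg5 passed the test as lower in neonates, at -0.31 and -0.28. Pcsk1n (ENSRNOG00000007112) was listed at 0 in all 4 libraries, and was not tested. Whether its transcript was among those quantified is not given in the sources used here, so the 0 is not read as a low level.

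Other enzymes that cut or modify prohormones were mostly lower in neonates. Of 14 in the list, all were tested, 8 were lower, 2 were higher and 4 did not pass edgeR's quasi-likelihood test, with a median log2 fold change of -0.49. The called share of 10 of 14 stands beside 62.3% over all genes, of which 31.1% were lower and 31.2% higher. With each library left out in turn, 7 to 11 were called. None was called higher without neonate replicate 1 (0 higher, 8 lower), without adult replicate 2 (0 higher, 7 lower) or with library size alone (0 higher, 9 lower). Cpd, a carboxypeptidase of the trans-Golgi network that also trims basic residues, had 7.46 and 7.40 CPM in neonates and 47.7 and 53.6 CPM in adults. It was 6.81-fold lower in neonates (log2 fold change -2.77, SE 0.11, adjusted p = 1.4e-06, edgeR). Cpd was the sole gene of this list past 2-fold, beside 20.8% of all genes. Pam, which amidates the ends of peptides after the work of Cpe, had 284 and 268 CPM in neonates and 408 and 420 CPM in adults, and its log2 fold change was -0.58 (adjusted p = 0.00031, edgeR). The lysosomal protease Ctsl was at -0.41 (adjusted p = 0.0033, edgeR). Convertases of the constitutive pathway, chosen after their values were seen, included Furin at -0.39 and Pcsk6 at -0.80, both lower in neonates, while Pcsk7 (0.08) and Pcsk5 (-0.45) did not pass the test.

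Genes for the assembly and release of dense-core vesicles were called in both directions, at a share near that of all genes (62.3%). Of 23 listed, 22 were tested, 10 were lower in neonates, 3 were higher and 9 did not pass the test, with a median log2 fold change of -0.23. The largest changes past the test were all toward adults. Sytl4, a Rab27 effector that docks granules, had 9.18 and 10.1 CPM in neonates and 35.2 and 35.5 CPM in adults (log2 fold change -1.88, adjusted p = 4.2e-06, edgeR). Cyb561, the cytochrome of the granule membrane that regenerates ascorbate for amine synthesis, had 197 and 162 CPM against 678 and 553 CPM (-1.78, adjusted p = 1.1e-05, edgeR). Syt7, a calcium sensor of slow release, was at -1.64 and Ccdc186, needed to sort granule cargo, at -1.59. Of the abundant genes, the calcium sensor Syt1 was at -0.43 (adjusted p = 0.013, edgeR) and lost its call without adult replicate 1 (-0.27, adjusted p = 0.0649, edgeR), and the SNARE gene Snap25 was at -0.11 and did not pass the test. The 3 genes higher in neonates, named after their values were seen, were Ptprn (0.53), Baiap3 (0.91) and Rab26 (1.09).

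Of 23 precursors of secreted peptides, 10 passed the filter on low values, 6 were higher in neonates, 0 were lower and 4 did not pass the test, beside 31.2% higher and 31.1% lower over all genes. Without adult replicate 2, 3 were higher and 1 was lower. Npy, the neuropeptide Y gene of sympathetic neurons, had 169 and 125 CPM in neonates and 38.5 and 34.9 CPM in adults. Its log2 fold change was 2.002 ± 0.14 (SE, adjusted p = 8.1e-06, edgeR). Gal, the galanin gene, was at 1.42, Bdnf, a neurotrophin gene, at 1.39 and Adcyap1, which encodes the peptide PACAP, at 1.29, all with levels under 5 CPM. Gal and Bdnf lost their calls without adult replicate 2 (1.21 with adjusted p = 0.0693 and 1.13 with adjusted p = 0.0563, edgeR). Adm, the adrenomedullin gene, had 188 and 183 CPM against 233 and 186 CPM and did not pass the test, at -0.18. It was lower in neonates without adult replicate 2 (-0.36, adjusted p = 0.0068, edgeR).

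Of 8 transcription factors linked to neuroendocrine genes, 7 were tested, 4 were lower in neonates, 1 was higher and 2 did not pass the test, a called share near the 62.3% over all genes. Rest, which represses neuronal genes, the granins among them, had 5.27 and 4.51 CPM in neonates and 8.71 and 11.6 CPM in adults (log2 fold change -1.05, adjusted p = 0.0033, edgeR). St18, which restrains secretion in endocrine cells, was at -0.98. Creb1, the main factor that binds the cAMP response element, had 2.5 and 1.4 CPM in neonates and 5.1 and 6.1 CPM in adults. It was at -1.50 (adjusted p = 0.0036, edgeR), with fractional counts in the adult libraries and low, unequal levels in the neonatal ones. Crem, its relative, was at 0.36 (adjusted p = 0.042, edgeR) and lost its call under 6 of 13 alternatives, with 0.14 (adjusted p = 0.277, edgeR) without neonate replicate 1.

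**Figure D4:**
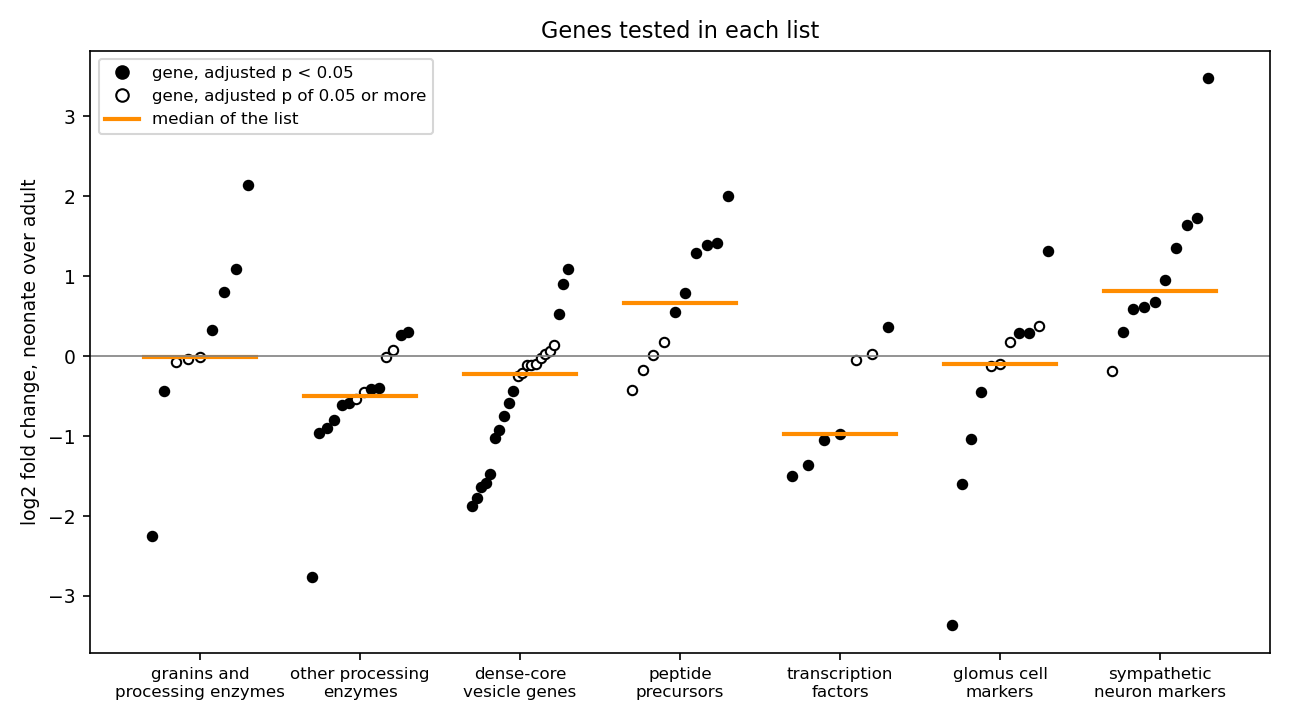
Log2 fold change of neonates over adults (vertical axis) for each gene tested in 7 lists, filled where the adjusted p was under 0.05, with the median of the list as a bar. The granins and processing enzymes spread from -2.25 to 2.14 around a median near 0, the other processing enzymes lie mostly below 0, and the sympathetic neuron markers lie mostly above 0.

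The markers of glomus cells and of sympathetic neurons, which both make granins, moved differently. Of 11 glomus cell markers, 4 were lower in neonates, 3 were higher and 4 did not pass edgeR's quasi-likelihood test, with a median log2 fold change of -0.09. This called share is near the 62.3% over all genes. With library size alone 1 marker was higher and 5 were lower. Their summed level was 3890 and 3490 CPM in neonates and 4155 and 3466 CPM in adults. The lower ones included Th (-0.45), Olr59 (-1.04) and Kcnk9 (-3.37), and the higher ones were Dbh (1.31), Slc18a1 (0.30) and Kcnk3 (0.29). Ddc, Slc18a2, Phox2a and Hand2 did not pass the test.

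Of 10 sympathetic neuron markers, 9 were higher in neonates and 0 were lower, beside 31.2% higher and 31.1% lower over all genes. The remaining 1, Isl1, did not pass the test. The summed level of the 10 markers was 2820 and 2521 CPM in neonates and 1754 and 1439 CPM in adults. Slc6a2, the noradrenaline transporter gene, was at 1.65, Nefm at 1.73, Nefl at 1.36 and Gap43 at 0.96. Prph, Stmn2, Uchl1 and Elavl4 were between 0.30 and 0.68. None of these markers was at 0 in a library. Vgf, Pcsk2, Chga and Cpe were also called higher, as were 31.2% of all genes and the glomus cell markers Dbh, Slc18a1 and Kcnk3. The call of Chga was lost without neonate replicate 1. The part of sympathetic neurons in the levels of Vgf, Pcsk2, Chga and Cpe was not tested.

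Set against the glomus cell markers of the same library, the ages did not overlap for 8 of the 9 genes, beside 76.9% of all genes tested. The median difference over all genes tested was 0.37 on this scale. The measure was log2 of a gene's CPM over the geometric mean CPM of the 11 markers, a mean of 115 and 111 CPM in neonates and 163 and 132 CPM in adults. Chga was at 3.91 and 2.84 in neonates and 2.27 and 2.33 in adults, a difference of 1.08. Cpe was at 1.36 and 1.40 against 0.60 and 0.74, a difference of 0.71. Chgb, Scg3 and Scg5, which overlapped between the ages in CPM, had differences of 0.38, 0.31 and 0.35 without overlap, near that median. Vgf (2.51) and Pcsk2 (1.41) were further toward neonates and Pcsk1 (-1.76) remained toward adults. Scg2, at 4.37 and 4.47 against 4.43 and 4.51, had a difference of -0.05 with overlap. With Th alone as the reference, the differences of the same genes were 0.46 for Chgb, 0.39 for Scg3, 0.42 for Scg5 and 0.03 for Scg2. Since the markers themselves changed with age, these are differences between genes, and with 4 libraries an exact permutation test of them cannot pass the threshold.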

How the data were processed

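Reads of 4 poly A+ libraries were trimmed by the authors, mapped with STAR and quantified with Salmon on Rnor_6.0, and transcripts were summed to genes. The submitters' processing notes name Salmon 1.5.2. The deposited values are estimated counts per gene, neither normalized nor filtered. Whether counting used strand is not given in the sources used here.

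Estimated counts were rounded. Of the table, 636 genes whose symbol has a biotype other than protein-coding were left out, as were genes that did not reach 1 CPM in 2 libraries. The 13665 genes of the table with no biotype were not removed on that ground. The genes tested therefore include some ribosomal RNA entries and are not all protein-coding. R 4.3.3, edgeR 4.0.16 (TMM, quasi-likelihood test, no covariates), limma 3.58.1 and DESeq2 1.42.0 were used, and p-values were adjusted by Benjamini-Hochberg across every gene tested. Standard errors are the log2 fold change over the square root of F. Procedures were tested on simulated data.

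The 10 genes and the lists were chosen with earlier results of these data known. Named genes are all 10, every glomus, sympathetic and parathyroid marker used, and from each other list the 4 largest changes past 2-fold and the 2 highest levels, apart from some genes that are not reported here. Casr, a parathyroid marker, was under the filter. Promoter coordinates are of GRCr8, not the build of the reads. Alternatives comprised other tests, scalings and filters, a replicate block and each library left out.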

Additional observations from a re-analysis of the deposited data

How the results depend on the processing

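Leaving out 1 library at a time gave 3 to 6 of the 9 genes called and 2 to 4 past 2-fold, with the lowest call count without adult replicate 2, and it gave 3 to 5 transcription factors. With a mean of at least 5 CPM, 1 of 7 genes tested was past 2-fold (Vgf and Pcsk2 were removed by that filter), 1823 of all genes were, and 3 peptide precursors and 3 transcription factors were called. The sign of Chgb turned with limma-voom (0.0052) and with TMM factors from non-mitochondrial, non-ribosomal genes (0.0063). Single libraries turned Chgb (from -0.20 to 0.16), Scg3 (from -0.20 to 0.0121), Scg5 (from -0.16 to 0.0477) and the ratio of Scg2 to glomus cell markers (from -0.10 to 0.0044). That ratio was 0.026 with Th alone and 0.052 without the markers shared with sympathetic neurons, a reference that moved the median over the 9 genes from 0.38 to 0.48. The causes were not tested.

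Library size alone moved the median of all genes to -0.25. Of the calls over all genes without the fold threshold, 30.1% were then higher in neonates in place of 50.1%. Of the 9 genes, 1 was called higher and 4 lower in place of 4 and 2. Past 2-fold, 21.6% of the calls over all genes were higher in place of 36.8%. At that threshold, 1 of the 9 genes was higher and 1 lower in place of 2 and 1.

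Replicate numbers are shared between ages, but no label ties them to a litter, and the deviations of same-numbered libraries had a correlation across genes of 0.04. With the replicate block, 6 of the 9 genes were called, 9093 of all genes in place of 8625, and Chgb was at 0.0049. Vgf and Pcsk2, at 41.0 to 237 counts, and Pcsk1 are limited by depth more than the other genes.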

Other observations

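The precursors that fell under the filter on low values had few counts at both ages. Sst, the somatostatin gene, had 18 and 39 counts in neonates and 3 and 1 in adults, and Calca, the gene for calcitonin and its related peptide, had 6 and 24 against 5 and 0. Pomc had 52 and 22 counts in neonates and 29 and 32 in adults, and Nppc had 36 and 8 against 13 and 6, so that neonate replicate 1 was the highest library for both.

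Markers of other cell types varied between libraries in their own ways. The 7 glial markers found in the table summed to 1004 and 2098 CPM in neonate replicates 1 and 2, with adults at 1664 and 1777 CPM. The 6 endothelial markers found ranged from 1006 to 1055 CPM over the 4 libraries. The 3 erythroid markers found had 2982 and 1778 CPM in neonates and 795.5 and 781.7 CPM in adults, again with neonate replicate 1 the highest. The 6 macrophage markers had 65.0 and 72.5 CPM against 115.5 and 114.4 CPM, and the 4 adipocyte markers had 6.17 and 7.60 CPM against 22.1 and 36.1 CPM. The 5 smooth muscle markers had 617 and 647 CPM against 743 and 869 CPM. Thyroid, skeletal muscle and lymphocyte markers summed to at most 23.6 CPM in a library.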
